A study of Mus musculus with 4 samples.

Results

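The lipoprotein lipase axis is the set of proteins through which heart muscle takes fatty acids from circulating triglyceride. It was followed here through 10 genes, chosen by symbol for their known roles, of the 23420 genes counted in each library. All 10 had a row in the count files. The samples were 4 libraries of polyadenylated RNA from hearts of wild-type C57BL/6J mice, a standard inbred laboratory strain, labelled male and 12 weeks old, with no treated, mutant or control group. The tissue label names the heart as a whole, whereas the protocol names the frozen tips of the ventricles as the source of the RNA. Levels are given as CPM, each gene's count scaled to 1000000 gene counts in all, for libraries 1 to 4, numbered as in the sample titles, and libraries are treated as samples of 1 group.

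Lipoprotein lipase is made by the muscle cells of the heart, folds with the help of a maturation factor in the endoplasmic reticulum, and is carried across the capillary endothelium to the vessel wall by a lipid-anchored protein. There it splits the triglyceride of chylomicrons and very low density lipoprotein into fatty acids, and angiopoietin-like proteins inactivate it. The fatty acids released enter the cells with the help of membrane proteins and are bound inside by small fatty acid binding proteins. The adult heart burns fatty acids as its main fuel.

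Depth ran from 10523709 to 15359296 gene counts per library, and a gene with 0 counts could have stood as high as 0.195 to 0.285 CPM (3 counts). Sex-linked genes went against the male label in libraries 2 and 3. Xist, the RNA of the inactive X chromosome, had 5, 1897, 1806 and 19 counts in libraries 1 to 4, and the Y-linked gene Ddx3y had 341, 0, 1 and 437 counts. The spread of each of the 10 genes is therefore also given with libraries 1 and 4 alone, where edgeR called 0 of the 10 (1 at an unadjusted p under 0.05). In that setting, also written as without libraries 2 and 3, edgeR called only 6 of 12345 tested genes. So few libraries give little power, and a call absent there does not show which libraries carry the spread. All 10 cardiomyocyte markers searched were present, with Myh6, the adult myosin heavy chain, at 49907 ± 4767 CPM (SD, n = 4) and Tnnt2, cardiac troponin T, at 10158 ± 240 CPM. Whether the libraries came from separate mice is not spelled out in the labels. The p-values below therefore reflect only how these samples differ, and part of that may be technical.

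The 10 genes summed to 9483, 8492, 9095 and 9479.6 CPM in libraries 1 to 4. Lpl and Fabp3 made up 84.7 ± 0.891% of that sum (SD, n = 4), and the other 8 genes shared the rest. By mean CPM, Fabp3 stood 19th and Lpl 21st among all genes, while Angptl4, the least abundant of the 10, stood 8704th.

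**Figure D1:**
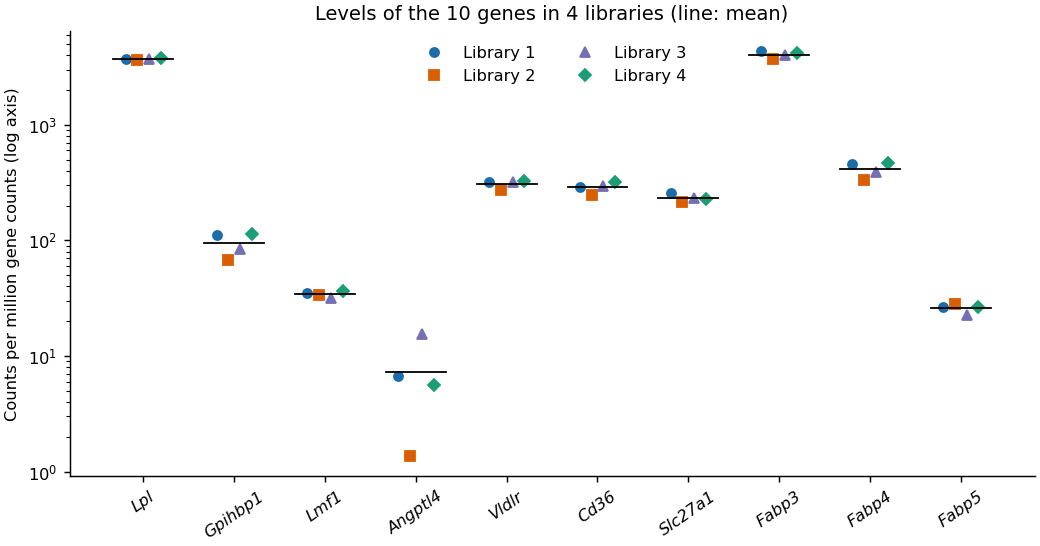
CPM (log axis) of the 10 genes, 1 point per library, with a line at the mean of 4 libraries. Lpl and Fabp3 lie at 3619 CPM or higher in every library, and the points of Angptl4 run from 1.37 to 15.4 CPM.

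Lpl, the lipase itself (chromosome 8, 68880491 to 68907448, plus strand, GRCm38), had the lowest variance ratio of the 10 genes over the 4 libraries. It had 3677, 3619, 3723 and 3778 CPM in libraries 1 to 4. The highest and lowest library differed by 1.04-fold, and the coefficient of variation was 1.83%, where counting error alone would give 0.451%. Each gene's spread was set against the trend for genes of its abundance as a variance ratio, in which 1 is the spread the trend gives. The variance ratio of Lpl was 0.113 (0.242 with libraries 1 and 4 alone, where Vldlr, Gpihbp1, Fabp5, Fabp4 and Lmf1 were lower, and 0.109 without library 2, where Vldlr was lower), lower than in all but 4.90% of tested genes, against a median of 0.852 over all tested genes. Its adjusted p for excess spread was 0.998 (edgeR quasi-likelihood fit, Benjamini-Hochberg over 12358 genes).

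Gpihbp1 encodes the anchor that endothelial cells use to carry the lipase to the capillary lumen and hold it there (chromosome 15, 75596628 to 75599481, plus strand). It had 111, 67.6, 84.1 and 113 CPM in libraries 1 to 4. Libraries 1 and 4 were close to each other and libraries 2 and 3 lower, and the exact 95% Poisson limits of library 2 (63.4 to 72.1 CPM) did not reach those of library 4 (108 to 119 CPM). Such limits take in counting error alone, and they may be too narrow even for that, because the same molecule may have been read more than once. The spread of 1.67-fold gave a variance ratio of 13.9, higher than in 98.9% of tested genes, and an adjusted p of 0.179 (edgeR), so it did not pass the threshold of 0.05. Without libraries 2 and 3 the variance ratio was 0.0183 (adjusted p = 0.999, edgeR). The ratio of Lpl to Gpihbp1 counts was highest in library 2, at 53.5, and its geometric mean over the libraries was 40.2. The mean log2 value was 5.33 ± 0.34 (SD, n = 4).

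Lmf1, the endoplasmic reticulum factor without which the lipase does not mature (chromosome 17, 25579085 to 25662826, plus strand), had 34.8, 33.5, 31.6 and 36.1 CPM. Its coefficient of variation of 5.65% was close to the 4.71% that counting alone would give, so little spread beyond counting error could be resolved at this depth. The variance ratio was 0.358, and 0.131 with libraries 1 and 4 alone. Lpl exceeded Lmf1 by 109-fold in counts, with a log2 ratio of 6.76 ± 0.08 (SD, n = 4), the narrowest of the 10 ratios formed.

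Angptl4 was the only one of the 10 genes called more variable than genes of similar abundance, where 0.445% of all tested genes were called. It encodes an angiopoietin-like protein that inactivates the lipase and that fasting, fatty acids and glucocorticoids are known to raise (chromosome 17, 33773750 to 33781830, minus strand). It had 96, 19, 162 and 86 counts in libraries 1 to 4, which is 6.66, 1.37, 15.4 and 5.60 CPM. Library 3 was highest and library 2 lowest, 11.3-fold apart, with libraries 1 and 4 between them. For library 2 the exact 95% Poisson limits were 0.822 and 2.13 CPM, far from the 13.1 and 18.0 CPM of library 3. The variance ratio was 38.3 (adjusted p = 0.0218, edgeR). Without library 3 the call was lost (adjusted p = 0.142, edgeR) at a variance ratio of 22.8, and with a prior not made robust to outlying genes it was lost (adjusted p = 0.124, edgeR) at a variance ratio of 37.8. Without libraries 2 and 3 the variance ratio was 1.32 (adjusted p = 0.984, edgeR). The ratio of Lpl to Angptl4 counts ran from 241 in library 3 to 2583 in library 2, while Lpl itself differed by 1.04-fold.

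**Figure D2:**
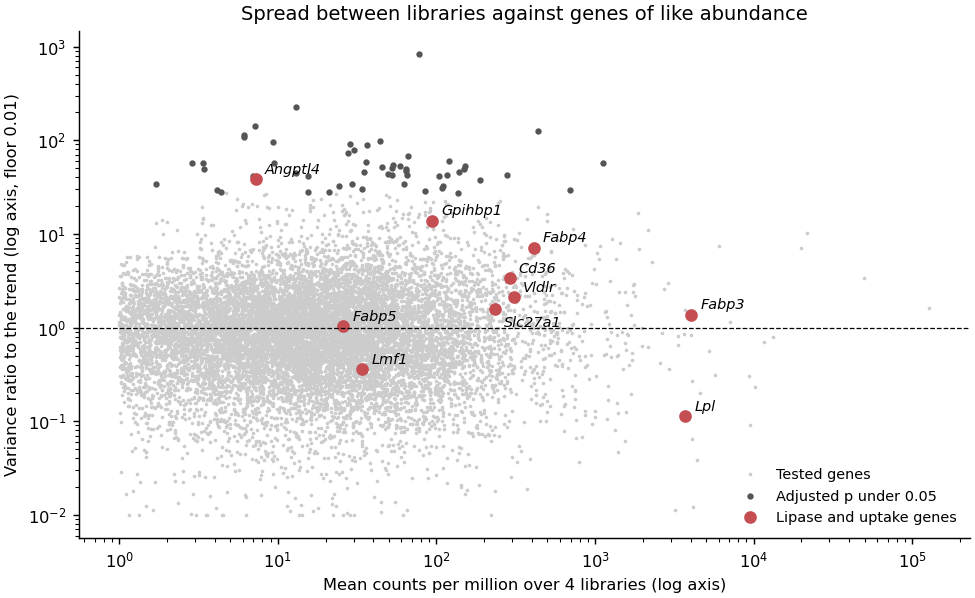
Variance ratio of each tested gene to the trend (log axis, values under 0.01 drawn at 0.01) against its mean CPM (log axis), with genes of adjusted p under 0.05 in dark grey and the 10 lipase and uptake genes in red. Angptl4 at 38.3 lies among the called genes, Gpihbp1 at 13.9 and Fabp4 at 7.08 lie below them, and Lpl at 0.113 lies near the lower edge.

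Vldlr, the receptor that binds very low density lipoprotein and is prominent in heart and muscle (chromosome 19, 27216484 to 27254231, plus strand), had 319.5, 271, 322 and 323 CPM. Libraries 1, 3 and 4 were within a few CPM of each other and library 2 stood below them. The spread of 1.19-fold gave a variance ratio of 2.11 (adjusted p = 0.993, edgeR). That value rested on library 2, without which the ratio was 0.0776, and it was 0.00192 with libraries 1 and 4 alone. Lpl counts exceeded Vldlr counts by 12.0-fold, with a log2 ratio of 3.59 ± 0.10 (SD, n = 4).

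Cd36, the membrane glycoprotein through which long-chain fatty acids enter endothelial and muscle cells (chromosome 5, 17781690 to 17888801, minus strand), had 292, 247, 297 and 321 CPM. Library 2 was again the lowest. Its coefficient of variation was 10.7%, against 1.61% from counting alone, and its adjusted p was 0.910 (edgeR). The variance ratio was 3.36, 0.857 without library 2 and 3.46 with libraries 1 and 4 alone. Slc27a1, a fatty acid transport protein that also activates its cargo as an acyl-CoA synthetase (chromosome 8, 71568882 to 71587302, plus strand), had 256, 215, 231 and 228 CPM, highest in library 1 and lowest in library 2 (adjusted p = 0.995, edgeR). Its variance ratio was 1.59, and 7.18 with libraries 1 and 4 alone. Cd36 counts were 1.24 times those of Slc27a1, higher in 4 of 4 libraries. That order depended on length: per kilobase of the RefSeq-paired transcript the ratio was 1.02, with Cd36 higher in 2 of 4 libraries.

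The 3 fatty acid binding proteins differed widely in level. Fabp3, the form of heart and skeletal muscle (chromosome 4, 130308595 to 130315463, plus strand), had 4303, 3678, 3975 and 4180.2 CPM, with library 2 lowest and a coefficient of variation of 6.77%. Its variance ratio was 1.37, 0.515 without library 2 and 1.15 with libraries 1 and 4 alone. Fabp4, the form of adipocytes and also of capillary endothelium and macrophages (chromosome 3, 10204088 to 10208576, minus strand), had 457, 331, 392 and 468 CPM. Libraries 1 and 4 were the highest and library 2 the lowest, and the variance ratio of 7.08 did not pass the test (adjusted p = 0.515, edgeR). Without libraries 2 and 3 it was 0.124 (adjusted p = 0.999, edgeR). Fabp5, the epidermal form, which endothelial cells and macrophages also make (chromosome 3, 10012548 to 10016607, plus strand), had 26.5, 28.2, 22.6 and 26.4 CPM. It was highest in library 2, where the other binding proteins were lowest, and its variance ratio of 1.03 became 0.0205 with libraries 1 and 4 alone.

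Counts of Fabp3 exceeded those of Fabp4 by 9.86-fold and those of Fabp5 by 156-fold, and Fabp4 exceeded Fabp5 by 15.8-fold, each in 4 of 4 libraries. All 10 ratios formed between the genes kept 1 direction in 4 of 4 libraries. Each gave p = 0.125 when the signs of the 4 log2 ratios were flipped in every way (exact permutation, two-sided), and 0.125 after Benjamini-Hochberg adjustment over the 10 pairs. That is the smallest p that 4 libraries allow, so no pair could pass 0.05.

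The coding sequences of the binding proteins are shown because reads are assigned to family members by sequence. Below, the opening 120 bases of the Fabp3 and Fabp4 coding sequences and bases 7 to 126 of that of Fabp5 are set in register without gaps, counted from the A of the start codon (GENCODE M21 transcripts, GRCm38). Capitals mark the 60 positions at which all 3 carry the same base.
Fabp3: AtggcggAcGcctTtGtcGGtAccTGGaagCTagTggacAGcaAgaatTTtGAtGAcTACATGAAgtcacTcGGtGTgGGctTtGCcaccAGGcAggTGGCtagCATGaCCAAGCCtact
Fabp4: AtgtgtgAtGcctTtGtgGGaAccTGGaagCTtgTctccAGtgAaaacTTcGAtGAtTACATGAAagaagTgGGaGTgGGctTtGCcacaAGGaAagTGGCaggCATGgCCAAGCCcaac
Fabp5: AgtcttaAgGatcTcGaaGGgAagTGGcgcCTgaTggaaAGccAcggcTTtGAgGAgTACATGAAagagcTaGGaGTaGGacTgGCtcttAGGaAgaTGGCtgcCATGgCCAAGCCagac

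Over the whole coding sequence, Fabp3 and Fabp4 were identical at 66.5% of aligned bases, Fabp4 and Fabp5 at 62.2% and Fabp3 and Fabp5 at 58.3%. The longest run of identical bases between any of them was 14. Copies elsewhere were closer. Of the 50-base windows of the Fabp3 transcript, 37.3% also occurred, on either strand, in transcripts of other genes, led by the processed pseudogene Fabp3-ps1 with 29.2%. The Fabp3 share can also take in windows from the opposite-strand genes that overlap its exons. For Fabp5 the share was 21.1%, with 19.6% in the processed pseudogene Gm6166. For Lpl it was 4.11% and for Slc27a1 1.75%, and the other 6 genes had 0 such windows. Reads listed as not aligning uniquely, 8.13 to 8.48% of those listed per library, were not assigned to genes, so the counts of Fabp3 and Fabp5 are uncertain by an amount that was not tested. Exons of the opposite-strand genes Zcchc17 and Gm10570 overlapped 19.6% of the exon bases of Fabp3, which libraries without strand cannot separate.

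The promoter of Fabp3 is shown as that of the most abundant of the 10 genes, beside that of Lmf1, which was low per length. RefSeq promoter windows (GRCm38.p6) were held for Fabp3, Cd36, Slc27a1, Lmf1 and Vldlr, 5 of the 10. Those of Lpl, Gpihbp1, Angptl4, Fabp4 and Fabp5 are not shown. The 250 bases before the transcription start are given, from chr4:130308488-130308737 for Fabp3 and chr17:25578924-25579173 for Lmf1, both on the plus strand. The start is that of the promoter windows. It lies past the GENCODE gene starts given above, 130308595 for Fabp3 and 25579085 for Lmf1. Part of each sequence therefore lies within the gene as GENCODE annotates it. Capitals mark matches on either strand to the TATA-like motifs TATTTAA and, searched separately, TATAAA, to the GC box GGGCGG, to the CCAAT box, or to the half-site AGGTCA that nuclear receptors such as PPAR recognise.
Fabp3: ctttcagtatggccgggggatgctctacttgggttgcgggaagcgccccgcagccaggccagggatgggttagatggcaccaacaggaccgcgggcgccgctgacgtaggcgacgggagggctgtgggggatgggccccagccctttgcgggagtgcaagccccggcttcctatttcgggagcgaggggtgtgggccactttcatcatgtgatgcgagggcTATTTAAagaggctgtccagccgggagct
Lmf1: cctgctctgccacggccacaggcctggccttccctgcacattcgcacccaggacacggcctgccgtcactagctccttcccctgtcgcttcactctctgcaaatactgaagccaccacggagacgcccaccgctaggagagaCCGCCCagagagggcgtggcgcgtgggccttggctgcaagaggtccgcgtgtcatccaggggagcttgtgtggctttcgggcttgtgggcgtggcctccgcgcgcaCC

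The Fabp3 window held TATTTAA starting 29 bases before the start and no match to the other motifs. TATTTAA was found in 4.51% of all 32851 windows, which for this search run 50 bases past the start. The Lmf1 window held no TATA-like match but 2 of GGGCGG on the opposite strand, which read CCGCCC here, the latter running past the start so that only its opening CC is shown, a motif present in 35.7% of windows. AGGTCA, held by 16.3% of all windows, was matched in the Cd36 window alone among the 5 genes. A match is a stretch of letters and not a binding site, and the absence of one says only that these letters are not in this window.

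Levels of different genes were compared per kilobase, since longer transcripts yield more reads. Per kilobase of the union of annotated exons, the order was Fabp3 at 4902 ± 332 CPM per kilobase (SD, n = 4), Lpl at 353 ± 6.47, Fabp4 at 91.8 ± 14.1, Cd36 at 80.5 ± 8.58, Slc27a1 at 39.8 ± 2.96, Gpihbp1 at 36.8 ± 8.63, Vldlr at 30.7 ± 2.50, Fabp5 at 7.27 ± 0.659, Lmf1 at 2.50 ± 0.141 and Angptl4 at 2.05 ± 1.66. Of the 9 pairs of neighbours in this order, 6 differed in the same direction in 4 of 4 libraries and by more than the SD of their log2 ratio. Slc27a1 and Gpihbp1, Gpihbp1 and Vldlr, and Lmf1 and Angptl4 did not.

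The union of exons takes in transcripts that retain introns, so it overstates the length of several of these messenger RNAs. For Fabp4 it merges into 1 block of 4489 bases, where the transcript paired with a RefSeq messenger RNA has 896, and for Lpl it is 10478 against 4115 bases. With the RefSeq-paired transcript as length, a setting chosen after seeing the data, Fabp3 stayed at 4902 ± 332 CPM per kilobase while Lpl stood at 899 ± 16.5, Fabp4 at 460.2 ± 70.9 and Gpihbp1 at 114 ± 26.7. Cd36 followed at 85.1 ± 9.07, Slc27a1 at 83.1 ± 6.19, Vldlr at 38.8 ± 3.16, Fabp5 at 26.3 ± 2.38, Lmf1 at 18.3 ± 1.03 and Angptl4 at 2.19 ± 1.78. Under this length 8 of 9 neighbour pairs differed beyond their spread, all but Cd36 and Slc27a1. Gpihbp1 moved from the sixth place to the fourth, above Cd36 in 4 of 4 libraries, and 7 of the 10 genes held the same place under both lengths. With the longest transcript as length, 8 of 10 genes held the place they had with the union of exons, and Lmf1 at 8.81 ± 0.497 CPM per kilobase stood above Fabp5 at 8.01 ± 0.725 in 3 of 4 libraries. That pair, in the opposite order under the other lengths, therefore has no order that holds for every length. With libraries 1 and 4 alone, and without library 2, 8 of 10 places were kept.

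**Figure D3:**
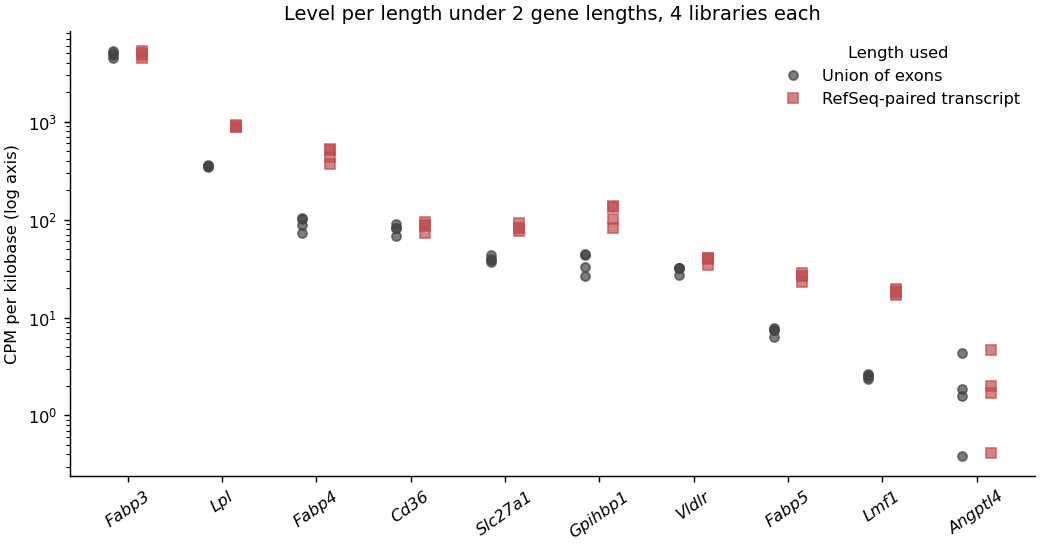
CPM per kilobase (log axis) of the 10 genes, 1 point per library, with the union of exons (dark circles) or the RefSeq-paired transcript (red squares) as length. Fabp3, Lpl and Fabp4 lead under both lengths, and Gpihbp1 moves above Cd36 and Slc27a1 under the shorter one.

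Library 2 held the lowest value for 8 of the 10 genes, all but Lmf1 and Fabp5, where 30.7% of all tested genes were lowest in it. The count was also 8 with TMM scaling (31.1% of all tested genes) and with DESeq2 scaling (30.2%). With the ribosomal precursor Rn45s left out of the totals it was again 8, against 26.0% of all tested genes. Rn45s held 12.8, 14.1, 11.9 and 12.3% of gene counts in libraries 1 to 4, most in library 2. Libraries 1 and 4 both stood above libraries 2 and 3 for 4 genes, Gpihbp1, Lmf1, Fabp3 and Fabp4, against 23.7% of all tested genes. Without Rn45s in the totals that count was 5, against 22.5% of all tested genes. The same split parts the libraries by Xist and Ddx3y counts. Whether apparent sex bears on it, here or in the marker lists below, was not tested. The sizes differed, from 1.04-fold between the highest and lowest library for Lpl to 1.67-fold for Gpihbp1 and 11.3-fold for Angptl4. Across the 10 genes the median coefficient of variation was 8.60%, against 9.59% over all tested genes, and 6 of the 10 were under 10%.

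**Figure D4:**
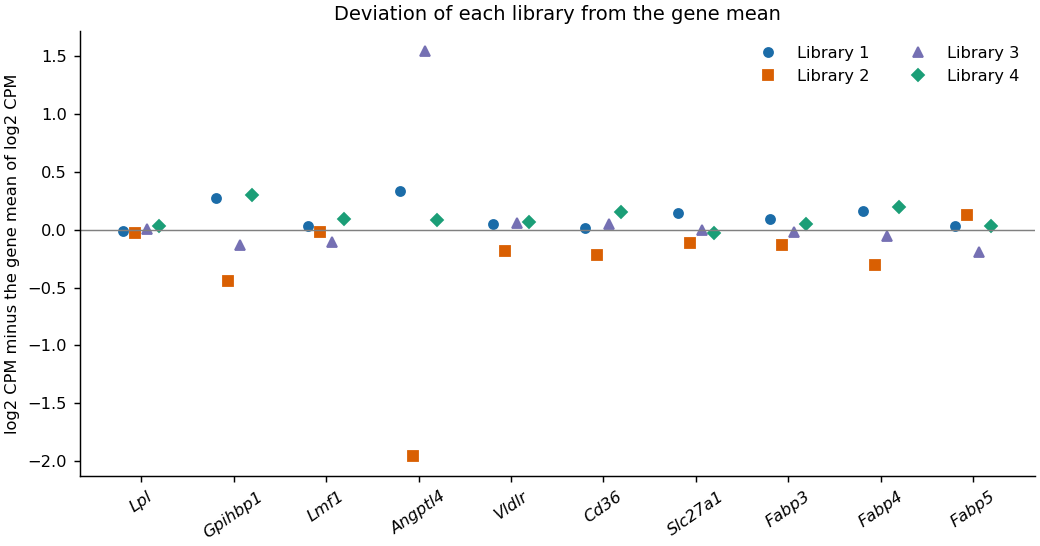
Log2 CPM of each library minus the gene's mean log2 CPM, 1 point per library, for the 10 genes. Angptl4 spreads widest, with library 3 high and library 2 low, while the points of Lpl nearly coincide.

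The cell types that make these genes were followed through fixed marker lists. In tissue RNA, fewer cells of a type and less RNA per cell cannot be told apart. The 12 endothelial markers, among them Cdh5 at 365 ± 14.9 CPM, Eng at 306 ± 14.9, Kdr at 234 ± 27.5 and Pecam1 at 182 ± 9.34 (SD, n = 4), summed to 1678, 1721, 1674 and 1685 CPM, 1.03-fold from lowest to highest. None was called by edgeR (2 of 12 at an unadjusted p under 0.05, where 6.00% of all tested genes were, and 0 by limma or DESeq2). Divided by that sum, Gpihbp1 differed 1.71-fold and Fabp4 1.44-fold between libraries, against 1.67-fold and 1.41-fold in CPM. The endothelial markers did not move together: their sum was highest in library 2, but Cdh5, the most abundant, Pecam1, Esam and Emcn were lowest there, 4 of 12 in all. Cdh5 had 374, 343, 369 and 373 CPM. Libraries 1 and 4 both stood above libraries 2 and 3 for 5 of the 12, Cdh5 among them. That was so for 23.7% of all tested genes, and for Gpihbp1 and Fabp4. The part of endothelial content in the values of Gpihbp1 and Fabp4 was not tested.

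Adipocytes, which make Lpl, Fabp4 and Cd36, were followed in the same way. The 12 adipocyte markers summed to 59.3, 66.5, 54.3 and 55.6 CPM, most of it from Thrsp (26.8 ± 8.53 CPM) and Cidea (21.7 ± 1.33 CPM), followed by Car3 and Cfd at 3.79 ± 2.28 and 3.38 ± 2.20 CPM. The defining markers were at or near 0: Adipoq had 0, 12, 4 and 3 counts, Plin1 5, 9, 13 and 6 counts, and Ucp1 0 counts in 4 of 4 libraries. Of 4 tested markers edgeR and limma called 0 (3 at an unadjusted p under 0.05 by either). Their median variance ratio by edgeR was 13.4, against 0.852 over all tested genes. DESeq2, which flags dispersion outliers and flagged 129 of 12358 tested genes, called 2, Thrsp and Cfd. Without library 2 edgeR called 1, Thrsp. The sum hides unlike profiles. Car3 had 2.15, 4.74, 6.56 and 1.69 CPM in libraries 1 to 4, and Cfd 1.32, 5.24, 5.32 and 1.63. Both were highest in libraries 2 and 3, where Fabp4 was lower. Thrsp, at 31.0, 33.6, 14.4 and 28.0 CPM, and Cidea, at 22.8, 19.8, 22.5 and 21.6, did not share that order. The 11 macrophage markers with a row, led by Csf1r (72.2 ± 4.45 CPM), Lyz2 (66.7 ± 6.43), C1qb (59.97 ± 5.15) and C1qc (51.9 ± 5.60), summed to 397, 354, 355 and 403 CPM. That sum was highest in libraries 1 and 4, as Fabp4 and Gpihbp1 were. Both libraries stood above libraries 2 and 3 for 7 of the 11 markers, against 23.7% of all tested genes. Emr1 and Mpeg1 were highest in library 3 and Fcgr1 in library 2. The part of macrophage content in the values of Fabp4 and Gpihbp1 was not tested. EdgeR and limma called 0 of the 11 (2 at an unadjusted p under 0.05 by either) and DESeq2 called 1, Cd163.

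**Figure D5:**
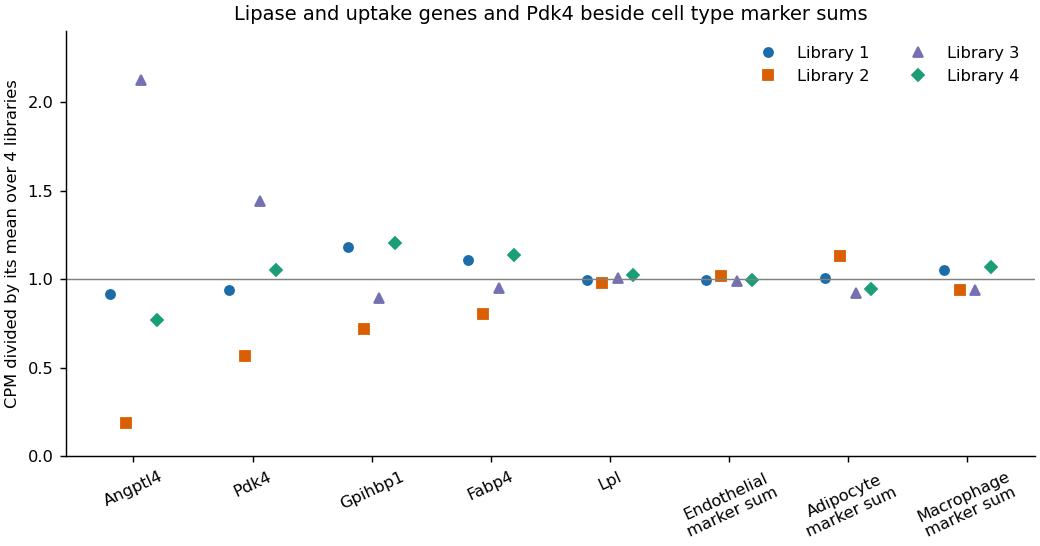
CPM divided by its mean over 4 libraries for Angptl4, Pdk4, Gpihbp1, Fabp4 and Lpl and for the summed endothelial, adipocyte and macrophage markers, 1 point per library. Angptl4 and Pdk4 are highest in library 3 and lowest in library 2, while Lpl and the endothelial sum stay near 1.

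Other genes of lipoprotein handling were read from a list of 29 with a row, of which 20 were tested and 0 called by edgeR, limma or DESeq2 (1 at an unadjusted p under 0.05 by edgeR). Their median variance ratio was 0.835, against 0.852 over all tested genes. The highest were Hspg2, the basement membrane proteoglycan perlecan, at 1787 ± 127 CPM (SD, n = 4), the lipoprotein receptor Lrp1 at 557 ± 48.7, Apoe, an apolipoprotein that receptors bind, at 264 ± 37.1, and Furin, a protease that cleaves the lipase and angiopoietin-like proteins, at 206 ± 5.45. The lipase's circulating cofactor and some other apolipoproteins, which liver supplies, had few or no counts: Apoc2 had 1, 1, 0 and 0 counts, and Apoc3, Apoa5 and Apob had 0 counts in 4 of 4 libraries. The endothelial lipase Lipg had 0, 4, 0 and 2 counts. Lipg and Apoc2 were named after their values were seen.

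Of 29 further genes of fatty acid uptake and binding, 18 were tested and 0 were called by edgeR, limma or DESeq2 (2 at an unadjusted p under 0.05 by edgeR). With no filter on low counts edgeR called 1 gene of this list, Cav1, the coat protein of caveolae, at 175, 126, 197 and 186 CPM. Got2, the mitochondrial aspartate aminotransferase also described as a plasma membrane fatty acid binder, had 1378 ± 67.3 CPM (SD, n = 4), and Acsl1, the main acyl-CoA synthetase of heart, 1017 ± 33.6. Ptrf, the caveolar coat protein now called Cavin1, had 354 ± 14.5 CPM and the growth factor Vegfb 267 ± 7.18. The further Slc27a genes were lower in CPM than Slc27a1, and the further Fabp genes had few or no counts, a comparison made after their values were seen. Slc27a4 had 39.4 ± 3.25 CPM and Slc27a3 1.08 ± 0.219, while Fabp1 and Fabp2, the liver and intestinal binding proteins, had 0 counts in 4 of 4 libraries, as did the lipid transporter Mfsd2a.

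Among 24 tested genes of the PPAR receptors and their targets, 1 was called, Pdk4, the kinase that shuts off pyruvate dehydrogenase. It had 261, 158, 400.4 and 293 CPM (adjusted p = 0.0169, edgeR), highest in library 3 and lowest in library 2 as Angptl4 was, and it was not called without library 3, without libraries 2 and 3, or with a prior not made robust. Limma and DESeq2 each called Pdk4 alone as well, and 5 of the 24 had an unadjusted p under 0.05 by edgeR, against 6.00% of all tested genes. The list's median variance ratio was 1.52, against 0.852 over all tested genes, and 14 of the 24 were lowest in library 2, as were 30.7% of all tested genes. The most abundant were enzymes of beta-oxidation, Hadha at 1693 ± 102 CPM (SD, n = 4), Acadvl at 949 ± 18.4, Acadm at 942 ± 64.9 and Hadhb at 619 ± 23.0.

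The genes whose profile over the 4 libraries was nearest to that of Angptl4 were sought among 5581 genes of at least 20 CPM, by the root mean square distance between log2 CPM values centred on each gene's mean. They were 8430408G22Rik, now called Depp1, at a distance of 0.603, Txnip, an inhibitor of thioredoxin, at 0.612, and the small nuclear RNA Rnu12 at 0.729. Txnip had 323, 198, 869 and 364 CPM, and all of these genes were lowest in library 2. The SD of log2 CPM of Angptl4 itself was 1.45, so these distances are not small against it. Those nearest to Lpl were Syne2 at 0.00355, Mapkapk2 at 0.00436 and Sft2d2 at 0.00484. With only 4 libraries and the SD of log2 CPM of Lpl at 0.0265, these distances describe genes that hardly varied.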

How the data were processed

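Gene counts per library were deposited by the authors. Per the labels' protocols, RNA was enriched for polyadenylated molecules and sequenced from single ends without strand. Per the submitters' processing notes, the build was mm10 and the tools named are HTSeq, edgeR, DESeq, Bowtie2, TopHat and TopHat2 2.0.10, with roles, annotation and counting mode not given in the sources used here. The 5 closing rows that name no gene held 8.96 to 9.30% of listed reads and were left out. CPM is a count scaled to 1000000 remaining gene counts.

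Spread between libraries was tested with edgeR 4.0.16 (R 4.3.3): TMM factors, genes averaging 1 CPM or more, a quasi-likelihood fit with an intercept alone and a robust prior, the upper tail of the variance ratio and Benjamini-Hochberg adjustment over 12358 genes, threshold 0.05. The script was tested on 3 simulated data sets, in which 200 genes were raised in 1 library each, by 2-fold or 4-fold. It recovered 27.7% of the 2-fold and 89.3% of the 4-fold changes. A mean of 9.67 unchanged genes were called per simulation. A gene not called may therefore still differ between libraries, above all by less than 2-fold. Alternatives used limma 3.58.1, DESeq2 1.42.0, other scalings and filters, and libraries left out. A DESeq2 call is a gene flagged as a dispersion outlier, without an adjusted p, so it is not the same test. DESeq2 flagged 129 of 12358 genes, where edgeR called 55 and limma 51. Ratios between genes had 0.5 added to each count. Lengths and coordinates came from GENCODE M21 (GRCm38), where 98.5% of 23420 symbols matched. Intervals are exact Poisson at 95%.

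The genes and lists were chosen with earlier results of these data known. Named beside the 10 genes are, of each list, the 4 of highest mean CPM, up to 4 called, and defining markers with 0 counts, plus the 3 nearest profiles of at least 20 CPM to Lpl and to the most variable of the 10. Genes named outside this rule were chosen after their values were seen.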

Additional observations from a re-analysis of the deposited data

Results flagged for a closer look

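Of 17 groups of 4 values examined for a library standing apart from the others, 2 had one. Chance gives about 1 in 20 groups. For the CPM of Vldlr, the gap between library 2, the lowest, and its nearest neighbour was 0.929 of the whole range and past Dixon's 95% critical value for 4 values. For the summed cardiomyocyte markers, library 3 was highest at 140155 CPM, where the other libraries lay between 124712 and 126125 CPM, and the gap was 0.909 of the range. The markers did not move as 1. Myh6 had 47535, 48453, 56973 and 46666 CPM in libraries 1 to 4, and Ttn 18616, 17208, 23890 and 19878 CPM. Tnnt2, Myl2, Mybpc3 and Ryr2 were also highest in library 3, by less. Actc1 and Tnni3 were neither highest nor lowest there, and Mb and Myl3 were lowest.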

How the results depend on the processing

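The number of the 10 genes called more variable than the trend was 1, Angptl4, and stayed 1 with RLE factors, totals alone, a mean of at least 5 CPM, limma and DESeq2. It was 0 with a prior not made robust (edgeR, 3 genes at an unadjusted p under 0.05) and 0 with libraries 1 and 4 alone (1 gene), and 2 with no filter on low counts, Gpihbp1 joining with an adjusted p of 0.00412. With no filter edgeR also called Cav1, Cd163, Ttn, Cfd, Car3 and Thrsp of the other lists. Leaving out 1 library at a time gave 0 to 1, with 0 without library 3 (4 genes at an unadjusted p under 0.05). Over all tested genes the count of calls was 55 of 12358, against 258 of 17447 with no filter. It was 129 with DESeq2, 10 with a prior not made robust and 6 of 12345 with libraries 1 and 4 alone. With 1 library left out it was 39 to 69. Leaving Rn45s out of the totals raised CPM values by a median of 0.20 on the log2 scale. The order per kilobase kept 7 of 10 places with the RefSeq-paired length and 8 with the longest transcript, without library 2, or with libraries 1 and 4 alone. Gpihbp1 against Cd36 turned with the RefSeq-paired length, and Fabp5 against Lmf1 with the longest transcript. The cause of these changes was not tested. With 4 libraries of 1 group there is no contrast between conditions, and low genes such as Angptl4 in library 2 rest on 19 counts. No paired analysis was possible because there is 1 group.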
